A study of Mus musculus with 12 samples.

Results

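The 31 genes described here encode enzymes of cholesterol and fatty acid synthesis and the proteins that control their transcription. They were taken by name from the 39017 genes of the deposited count tables, and all 31 were found and passed the filter on low counts in every comparison. Msmo1 stands in the tables under its older symbol Sc4mol and was matched by its identifier, ENSMUSG00000031604. The rule lists genes by name and uses no measured value, but the genes were chosen with earlier results of these data known.

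Cells make cholesterol from acetyl-CoA through mevalonate and the isoprenoid units to squalene, which is closed into lanosterol and trimmed to cholesterol. Fatty acids are built from the same acetyl-CoA, lengthened and given double bonds. Both routes are switched on by the sterol regulatory element binding proteins (SREBPs), which Scap carries from the endoplasmic reticulum when membrane sterol is low and which the Insig proteins hold back when it is high. Tumor cells are known to use both routes for new membranes, and cells in an animal can also take up lipid from plasma and neighbouring fat.

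RNA was measured in 12 libraries of 4T1, a mammary carcinoma line of BALB/c mice used as a model of triple-negative breast cancer, in 4 groups of 3. The cultures carried the genotype label POGZ WT (title VC, called control here) or POGZ KO (called knockout-labelled), and grew in DMEM with 10% FBS to 75% confluency. The tumors came from control or knockout-labelled cells, inoculated at 50k in the fat pad of a mammary gland, and the mice, BALB/c, were 8 weeks old. They were resected after 28 days and flash frozen. POGZ is a zinc finger protein of heterochromatin, and the comparisons ask what its loss does to these cells in culture and in the animal. The labels do not say whether the knockout-labelled cells were a single clone, or whether the 3 libraries of a culture group came from separate cultures, so culture p-values may measure technical spread alone. The hosts were immunocompetent, so tumor libraries hold host RNA, and fewer cells of a type cannot be told apart from less RNA per cell.

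Total counts ran from 14724518 to 21863223 in cultures, from 4712001 to 8338828 in control tumors and from 12128993 to 13043831 in knockout-labelled tumors. Levels below are CPM, counts scaled to the library total, with the total adjusted by edgeR's TMM factor (TMM-scaled CPM). Pogz RNA was 51.7, 52.2 and 48.9 in control cultures and 69.3, 68.1 and 69.8 in knockout-labelled ones, a log2 fold change of 0.45 ± 0.04 (SE, adjusted p = 3.66e-06), and in tumors it differed by 0.11 ± 0.20 (adjusted p = 0.944). The Pogz RNA thus went against a loss of transcript, and the groups are called by their labels. The culture value was not corrected for the shifts of whole chromosomes given below. An RNA level does not show a lesion that leaves the transcript in place. Of the receptors whose absence defines the subtype, Pgr was at 0.07 or less in cultures, while Esr1 and Erbb2 RNA lay between 30.4 and 80.7 in all 12 libraries. The summed level of 10 epithelial markers was 3487 to 4094 in cultures and 1852 to 2585 in tumors, and that of 10 macrophage markers was 44.7 to 57.8 and 878 to 2434.

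Upstream sequence is shown for 5 members that behaved differently, because SREBPs act through short promoter elements beside the CCAAT box of NF-Y. Each is a run of 180 bases before the RefSeq gene start (GRCm38.p6, which is mm10), read 5′ to 3′ on the gene's strand. Capitals mark the sterol regulatory element TCACNCCAC and the CCAAT box, which reads ATTGG on the other strand. The first 3 genes rose in knockout-labelled cultures, Fasn did not pass the test, and Scap fell. The windows are chr13:119690171-119690350 on the plus strand for Hmgcs1, chr5:114444089-114444268 on the plus strand for Mvk and chrX:72918341-72918520 on the plus strand for Nsdhl. Those for Fasn and Scap are chr11:120824548-120824727 on the minus strand and chr9:110333108-110333287 on the plus strand.
Hmgcs1: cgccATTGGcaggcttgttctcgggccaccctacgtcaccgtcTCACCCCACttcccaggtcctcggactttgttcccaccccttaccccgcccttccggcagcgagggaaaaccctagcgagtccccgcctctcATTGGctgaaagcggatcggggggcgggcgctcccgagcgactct
Mvk: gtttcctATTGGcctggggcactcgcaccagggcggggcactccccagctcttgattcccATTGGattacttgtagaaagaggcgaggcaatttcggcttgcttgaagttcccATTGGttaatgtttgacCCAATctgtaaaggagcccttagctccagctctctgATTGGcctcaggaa
Nsdhl: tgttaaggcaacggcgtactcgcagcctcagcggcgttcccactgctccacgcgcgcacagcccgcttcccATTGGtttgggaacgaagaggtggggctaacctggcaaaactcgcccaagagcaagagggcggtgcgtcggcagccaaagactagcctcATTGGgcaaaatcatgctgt
Fasn: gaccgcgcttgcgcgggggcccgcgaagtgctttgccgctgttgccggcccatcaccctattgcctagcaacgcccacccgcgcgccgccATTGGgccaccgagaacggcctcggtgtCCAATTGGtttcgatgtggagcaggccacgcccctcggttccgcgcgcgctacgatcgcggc
Scap: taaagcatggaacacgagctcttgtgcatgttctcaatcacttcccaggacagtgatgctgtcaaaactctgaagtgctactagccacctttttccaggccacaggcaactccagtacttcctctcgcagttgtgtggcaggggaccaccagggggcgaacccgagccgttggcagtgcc

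In the Hmgcs1 stretch the sterol regulatory element began 137 bases before the gene start, between CCAAT boxes at 176 and 45 bases. Mvk held 5 CCAAT boxes, Nsdhl 2 and Fasn 3, of which a pair overlap on opposite strands in CCAATTGG, and Scap held neither motif. RefSeq windows of 250 bases before the start were at hand for 25 of the 31 members. CCAAT stood on either strand in 19 of the 25 (76%), against 37.5% of 27025 genes with such windows, and the GC box GGGCGG in 20 (80%), against 35.4%. The E-box CACGTG was in 5 (20%, against 6.86% of genes), and TCACNCCAC was in Hmgcs1 alone (4%, against 1.22%). By their call in culture, CCAAT was in 14 of the 18 members with a window that rose, 4 of the 5 that did not pass the test and 1 of the 2 that fell. Tm7sf2 fell with a CCAAT box, and Acly, Acat2, Elovl6 and Lpin1 rose without it. The printed genes were picked, so their motifs do not stand for all members. These are letter matches, and no binding was measured.

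In culture, the knockout-labelled cells held more RNA for nearly the whole route from acetyl-CoA to cholesterol, while the core enzymes of fatty acid synthesis differed among themselves. Of the 31 members, 23 rose, 3 fell (Tm7sf2, Scap and Scd1) and 5 did not pass the test (Ebp, Srebf1, Insig2, Fasn and Acaca), by edgeR's quasi-likelihood test at a Benjamini-Hochberg adjusted p under 0.05 over 15705 genes. Of all genes tested, 23.0% rose and 24.9% fell. The median log2 fold change was 0.41 over the members and -0.01 over all genes. In 24 members all knockout-labelled cultures lay above all control cultures and in 4 all lay below, against 25.9% and 29.8% of all genes. Together the members took 0.569% to 0.575% of the counts in control cultures and 0.726% to 0.746% in knockout-labelled ones.

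All 7 mevalonate genes rose, with a median log2 fold change of 0.65. Hmgcs1 (chr13:119690379-119708260), which makes HMG-CoA, was at 237, 224 and 227 in control cultures and at 425, 413 and 413 in knockout-labelled ones. The groups lay far apart, and the log2 fold change was 0.87 ± 0.04 (SE, adjusted p = 6.67e-09). Idi1 (chr13:8885501-8892451), which interconverts the isoprenoid units, stood at 19.2, 16.5 and 17.3 against 36.2, 34.9 and 33.0, the largest log2 fold change of the 31 at 0.98 ± 0.07. Pmvk, the second kinase of the route, gave 20.8, 19.4 and 19.6 against 35.2, 38.1 and 35.2, a log2 fold change of 0.87 ± 0.06. Fdps, which joins the units into farnesyl diphosphate, rose by 0.65 ± 0.05 on the log2 scale and Mvd, the decarboxylase, by 0.56 ± 0.06. The smallest changes of the branch were those of Acat2, the cytosolic thiolase, at 0.39 ± 0.04, and of the kinase Mvk at 0.30 ± 0.07 (adjusted p = 0.00259). Some whole chromosomes differed between the culture groups. The median log2 fold change over genes ran from -0.45 on chromosome 6 to 0.33 on chromosome 3. On these, 7.33% and 89.4% of genes were higher. What part the knockout label had in these shifts was not tested. Pmvk and Fdps lie on chromosome 3. With the chromosome medians taken out, their log2 fold changes were 0.54 and 0.32, that of Mvk on chromosome 5 was 0.20, and all 3 were still called higher. Hmgcs1 and Idi1 lie on chromosome 13, whose median was 0.00. Acat2 has a close paralog, Acat3, with which it could share reads.

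Of the 11 genes from squalene to cholesterol, 9 rose, 1 fell and 1 did not pass the test, with a median log2 fold change of 0.41. Lss (chr10:76531588-76557138), which closes oxidosqualene into lanosterol, was at 82.2, 84.1 and 81.4 in control and 135, 138 and 140 in knockout-labelled cultures, a log2 fold change of 0.75 ± 0.04 (adjusted p = 1.54e-08). The median log2 fold change over genes of chromosome 10 was 0.14. Dhcr7, the reductase of 7-dehydrocholesterol, gave 32.0, 32.6 and 31.7 against 44.6, 55.2 and 51.4, or 0.66 ± 0.07. The demethylation enzymes and their neighbours rose by less. Hsd17b7 rose by 0.55 ± 0.04, Nsdhl by 0.52 ± 0.04, Msmo1 by 0.47 ± 0.04, Cyp51 by 0.34 ± 0.04 and Sc5d, the desaturase, by 0.22 ± 0.04. Squalene synthase (Fdft1) and squalene epoxidase (Sqle) rose by 0.32 ± 0.05 and 0.41 ± 0.04. Ebp, the sterol isomerase, was at 40.5, 37.3 and 37.4 against 39.6, 41.6 and 44.2, groups that overlap (log2 fold change 0.13 ± 0.06, adjusted p = 0.0754). Without control culture 1 or knockout-labelled culture 1 its adjusted p was 0.0251 or 0.0369.

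Tm7sf2, a sterol C14 reductase, went the other way. It was at 11.7, 12.9 and 13.0 in control and 8.87, 9.90 and 8.05 in knockout-labelled cultures and fell by 0.49 on the log2 scale (SE 0.10, adjusted p = 0.00131). Per kilobase of exon it had the lowest level of the 31 in control cultures, 2.85 TMM-scaled CPM per kilobase, where Scd2 had the highest, 381.

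Among the 6 genes of SREBP control and sterol transport, 3 rose, 1 fell and 2 did not pass the test. Insig1 (chr5:28071363-28078662), an SREBP target that retains Scap, was at 212, 217 and 238 against 336, 328 and 323, a log2 fold change of 0.57 ± 0.05 (adjusted p = 1.18e-06). Insig2, its paralog, was at 47.2, 42.5 and 48.3 against 46.8, 44.0 and 47.9, within the spread between replicates (0.02 ± 0.06, adjusted p = 0.831). Stard4, a carrier of cholesterol between membranes, rose by 0.46 ± 0.06. The factor Srebf2, which acts mainly on cholesterol genes, rose by 0.16 ± 0.04 (adjusted p = 0.00367). For Srebf1, which acts mainly on fatty acid genes, the log2 fold change was 0.11 ± 0.04 (adjusted p = 0.055, or 0.0308 without control culture 3 and 0.0332 without knockout-labelled culture 1). Scap was at 111, 105 and 108 against 89.3, 91.7 and 87.7. All knockout-labelled cultures lay below all control ones, and it fell by 0.26 on the log2 scale (SE 0.04, adjusted p = 0.000131).

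The 7 genes of fatty acid and glycerolipid synthesis were split: 4 rose, 1 fell and 2 did not pass the test, with a median log2 fold change of 0.11. The synthase Fasn was at 737, 736 and 737 against 674, 718 and 683 (log2 fold change -0.08 ± 0.04, adjusted p = 0.108). Its groups did not overlap, and the difference was small. Acaca, which makes malonyl-CoA, gave 139, 150 and 140 against 155, 147 and 140 (0.05 ± 0.05, adjusted p = 0.437). Acly, which makes cytosolic acetyl-CoA from citrate, rose by 0.11 ± 0.04 (adjusted p = 0.0292), but not without control culture 2 (0.116) or without knockout-labelled culture 2 (0.112) or 3 (0.0706). The elongase Elovl6, also on chromosome 3, rose by 0.50 ± 0.04, or by 0.18 with the chromosome medians taken out. Lpin1, a phosphatidate phosphatase, rose by 0.50 ± 0.06.

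The stearoyl-CoA desaturases, which place the double bond of oleate, moved in opposite directions in culture. Scd2 (chr19:44293674-44306864), the most abundant member per length, was at 2113, 2050 and 2085 in control and 2987, 2928 and 2892 in knockout-labelled cultures, a rise of 0.50 ± 0.04 on the log2 scale (adjusted p = 1.22e-06). Scd1 (chr19:44394455-44407879), which lies beside it, was at 111, 103 and 99.1 against 84.0, 82.0 and 80.1 and fell by 0.34 (SE 0.05, adjusted p = 7.7e-05). The per-kilobase ratio of Scd1 to Scd2 was 0.0531 to 0.0589 in control cultures and 0.0309 to 0.0314 in knockout-labelled ones, without overlap. These genes are close paralogs, so reads that match both could have been split between them or dropped.

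With all 12 libraries in 1 fit, where cultures share their spread with the tumors, 2 members (Pmvk and Dhcr7) rose and 0 fell. Tested against a fold change of 1.2, 17 rose and 1 fell.

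**Figure D1:**
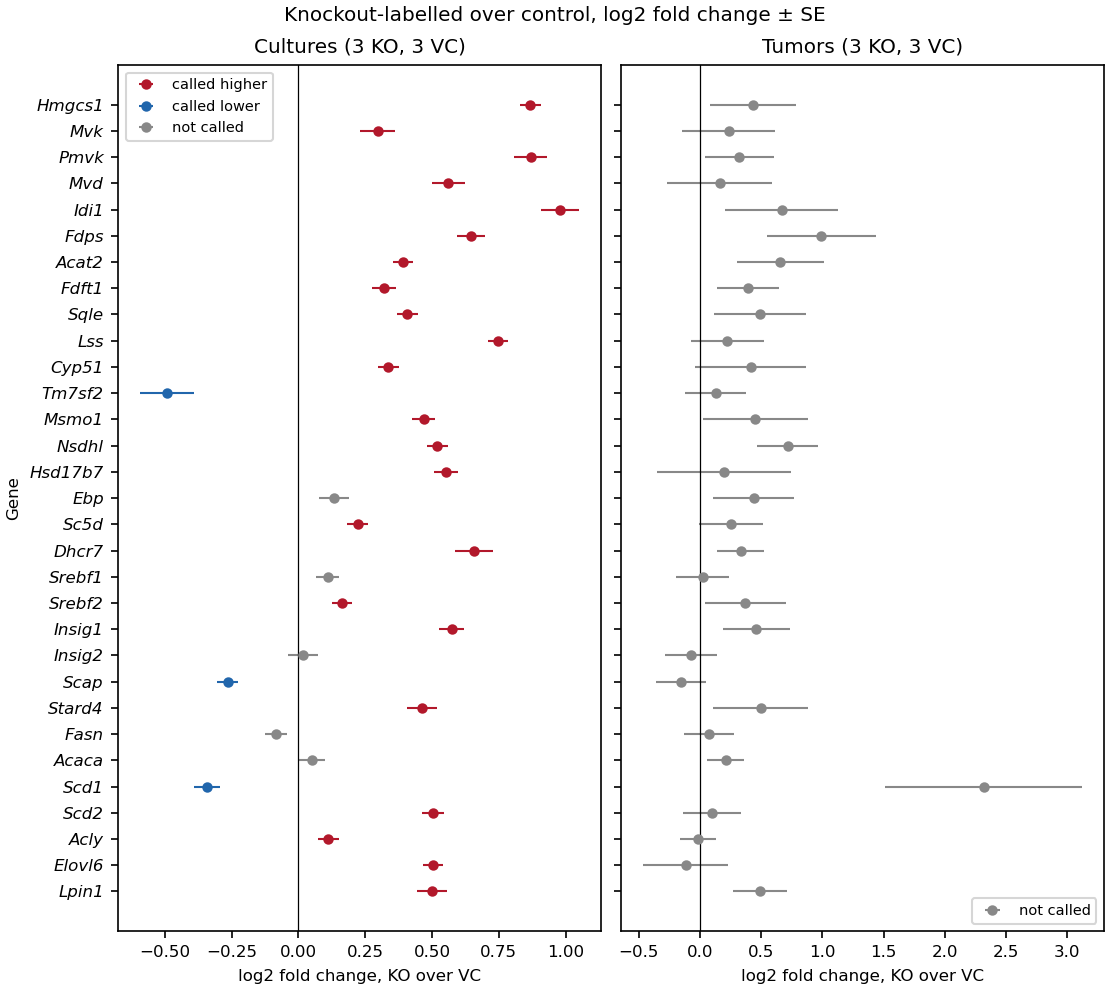
Log2 fold change of knockout-labelled over control samples for the 31 genes (rows, in the order of the pathway), in cultures on the left and tumors on the right; points are the fitted values and bars 1 SE, with 3 samples per group. Red marks the 23 genes called higher and blue the 3 called lower in cultures, and in tumors no gene was called and the bars are several times as long, on a wider axis.

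Beside the members, 6 further lists of related genes were read in the same culture fit, where 23.0% of all genes rose and 24.9% fell. Of 11 genes of the isoprenoid branches, 6 rose and 3 fell: Nus1, a subunit of the dolichol-making prenyltransferase, rose by 0.33 ± 0.04, its partner Dhdds fell by 0.41 (SE 0.06), and Pggt1b, a subunit of the enzyme that adds geranylgeranyl groups to proteins, rose by 0.55 ± 0.07. Of 18 measured genes of other fatty acid synthesis steps, 10 rose and 3 fell, among them Acss2, which makes acetyl-CoA from acetate (0.61 ± 0.06), and Hacd2, a dehydratase of chain elongation (0.61 ± 0.08). Of 10 proteins that process SREBPs or sense sterol, 1 rose and 2 fell, with Rnf139 at 0.17 ± 0.04 and Paqr3 at -0.26 ± 0.07.

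The counts for genes that store, export, activate or burn lipid lay near those shares of all genes. Of 15 measured genes of sterol transport and storage, 3 rose and 4 fell, and Soat1, which esterifies cholesterol for storage, fell from 161, 159 and 157 to 112, 107 and 113 (log2 fold change -0.52 ± 0.04, adjusted p = 3.78e-07). In the same list Gramd1b, a transporter of cholesterol from the plasma membrane, was at 12.7, 13.0 and 12.2 against 0.587, 0.546 and 0.512 (log2 fold change -4.51 ± 0.15, adjusted p = 6.34e-10). Of 20 genes of fatty acid activation and glycerolipids, 6 rose and 5 fell, with Gpat4, a glycerol phosphate acyltransferase, at -0.57 ± 0.04 and Acsl6 at -0.70 ± 0.07. Of 13 oxidation genes, 4 rose and 5 fell, and Acadm, the medium-chain dehydrogenase, rose by 0.38 ± 0.05.

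In tumors the fitted values lay mostly above 0, but no member passed the test between knockout-labelled and control tumors, where single tumors of a group varied widely. That does not show that the groups were alike. By edgeR's quasi-likelihood test 0 of the 31 rose and 0 fell at an adjusted p under 0.05 (0% of 17153 genes in either direction), and DESeq2 also called 0 of the members. At an unadjusted p under 0.05, 2 members (Nsdhl and Scd1) were higher and 0 lower, where 3.09% and 2.48% of all genes were. The log2 fold change was above 0 in 27 members, against 52.7% of all genes, with a median of 0.33 over the members and 0.02 over all genes. Over the alternatives the median over the members was 0.15 to 0.54. The members are not independent here. Knockout-labelled tumor POGZ_KO_8455 held the highest level of 19 members and control tumor POGZ_VC_8448 the lowest of 16. In 2 members all knockout-labelled tumors lay above all control tumors and in 0 all lay below, against 4.89% and 5.66% of all genes.

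The members without overlap were Nsdhl and Dhcr7. Nsdhl, a sterol dehydrogenase, was at 14.2, 11.6 and 11.9 in control tumors POGZ_VC_8447, POGZ_VC_8448 and POGZ_VC_8451 and at 14.7, 25.6 and 21.3 in knockout-labelled tumors POGZ_KO_8454, POGZ_KO_8455 and POGZ_KO_8459. The groups did not overlap, but only by the small gap between POGZ_VC_8447 and POGZ_KO_8454, and the log2 fold change was 0.72 ± 0.25 (adjusted p = 0.861). Dhcr7 gave 13.4, 11.9 and 11.8 against 13.9, 16.5 and 15.9 (0.33 ± 0.19, adjusted p = 0.861). Hmgcs1 was at 113, 52.7 and 114 against 83.6, 171 and 120, with the groups overlapping (0.43 ± 0.35, adjusted p = 0.894). Idi1 gave 7.83, 2.97 and 6.97 against 5.50, 13.9 and 8.29 (0.67 ± 0.46, adjusted p = 0.877), and Fdps 12.6, 6.17 and 12.7 against 10.0, 30.5 and 21.1 (0.99 ± 0.45, adjusted p = 0.861). In these 3 genes knockout-labelled tumor POGZ_KO_8454 lay below 2 of the control tumors.

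The levels of the sterol and mevalonate genes followed the single tumor more than its group. Tumor POGZ_KO_8455 held the highest level of 15 of these 18 genes, and control tumor POGZ_VC_8448 the lowest of 11 and tumor POGZ_KO_8454 of 5. Against the mean of the control cultures, the median log2 ratio of the 18 genes was -1.35, -2.27 and -1.32 in control tumors and -2.00, -0.83 and -1.21 in knockout-labelled tumors. Ribosomal and small structural RNA genes took 2.35%, 4.09% and 5.85% of the counts in control tumors and 5.13%, 2.98% and 2.96% in knockout-labelled ones, in the same order. That share was higher in POGZ_VC_8448 and POGZ_KO_8454, where these 18 genes were lowest, but also in POGZ_VC_8451, and its part in the levels was not tested. The range of the medians was wider within each tumor group than the 0.46 to 0.49 by which the knockout-labelled cultures stood above the control ones. The coefficient of variation of a member over the 3 libraries of a group had a median of 2.97% in control cultures and 2.38% in knockout-labelled cultures, and of 23.6% and 31.5% in the tumor groups. From the lowest to the highest of the 6 tumors, Acly spanned 1.25-fold, Idi1 4.69-fold, Fdps 4.95-fold and Scd1 15.7-fold.

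**Figure D2:**
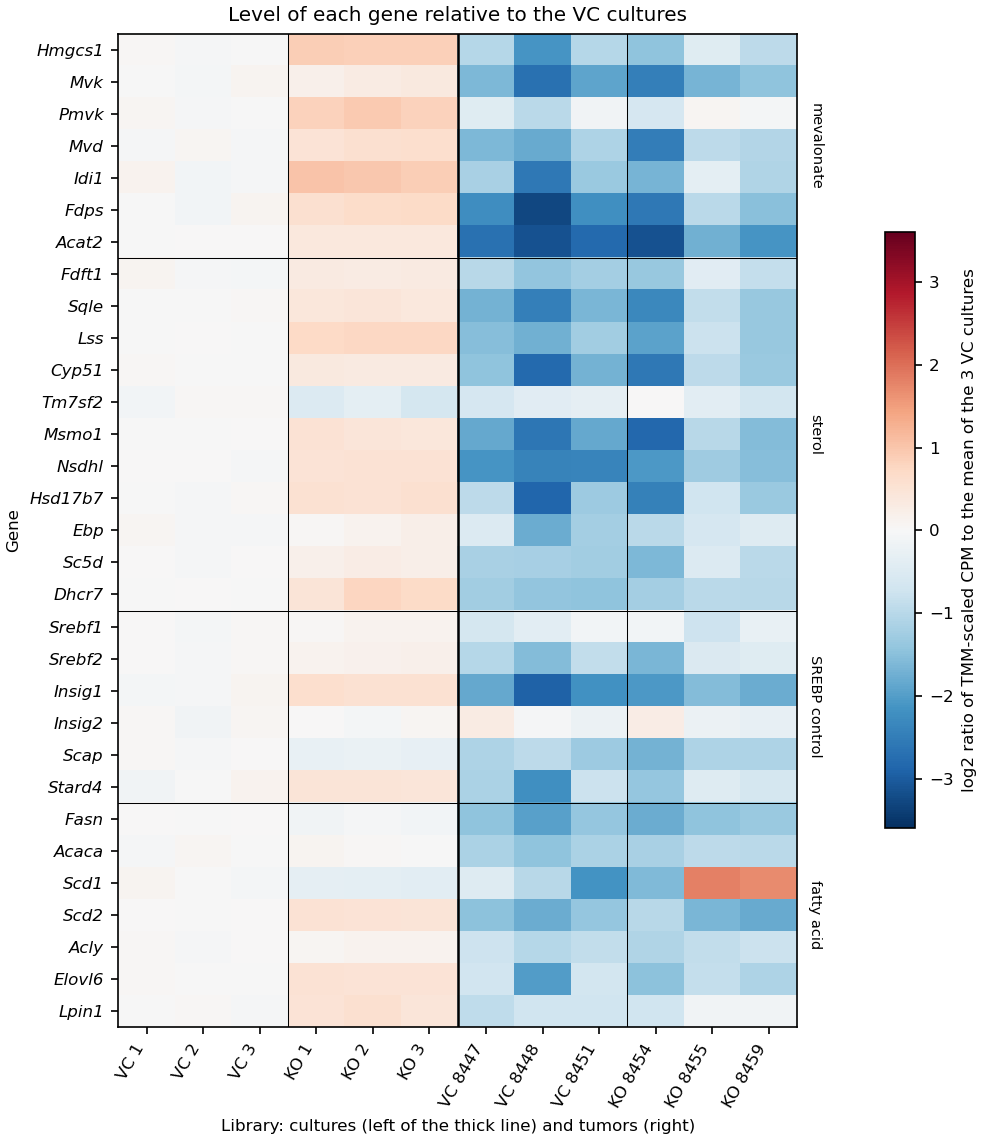
Level of the 31 genes (rows, grouped by role) in the 12 libraries (columns) as the log2 ratio of TMM-scaled CPM to the mean of the 3 control cultures; red is higher and blue lower, and the thick line parts cultures from tumors. The knockout-labelled cultures are red for most genes, the tumors are blue for most, with control tumor POGZ_VC_8448 and knockout-labelled tumor POGZ_KO_8454 the darkest and Scd1 red in tumors POGZ_KO_8455 and POGZ_KO_8459.

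Scd1 gave the largest fitted difference between the tumor groups and rested on 2 animals. It was at 75.6, 52.5 and 23.5 in control tumors and at 35.0, 369 and 342 in knockout-labelled tumors POGZ_KO_8454, POGZ_KO_8455 and POGZ_KO_8459. Tumor POGZ_KO_8454 lay among the controls and the other two above every culture as well. The log2 fold change was 2.32 ± 0.80 (adjusted p = 0.861). Scd2 did not follow it: it was at 751, 610 and 796 against 1043, 664 and 590 (0.10 ± 0.24, adjusted p = 0.956). The per-kilobase ratio of Scd1 to Scd2 was 0.112, 0.0961 and 0.0329 in control tumors, 0.0375 in tumor POGZ_KO_8454, and 0.620 and 0.647 in tumors POGZ_KO_8455 and POGZ_KO_8459.

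Markers of fat cells, of fibroblasts, of mammary and milk genes and of B and plasma cells all stood highest in the same 2 tumors. The summed level of 12 adipocyte markers was 64.9, 67.8 and 20.1 in control tumors and 37.3, 146.9 and 131.5 in knockout-labelled ones, and 12.1 to 14.1 in cultures. Of the 12, 8 were at 0 in control tumor POGZ_VC_8451, which also had the lowest Scd1. The adipocyte hormone Adipoq was at 0 in every culture and at 1.85, 2.49, 0, 0.49, 7.0 and 4.31 in the 6 tumors in the same order. The summed level of 10 fibroblast markers was 3768, 2406 and 3095 in control tumors and 3549, 6504 and 4735 in knockout-labelled ones, and 31.5 or less in cultures. The summed level of 10 mammary and milk markers was 338, 207 and 205 in control tumors and 230, 353 and 941 in knockout-labelled ones. Among them the milk casein Csn2 was at 2.27, 0.24 and 0.13 in control tumors and 11.1, 31.5 and 227 in knockout-labelled ones. It was highest in POGZ_KO_8459 and next highest in POGZ_KO_8455. Of 10 markers of sebaceous gland and skin, which also use Scd1, the summed level was 24.1 to 36.1 in tumors and 30.2 to 42.9 in cultures, with Awat1, Krt79 and Mogat2 at 0.24 or less throughout. B and plasma cell markers summed to 1324 in tumor POGZ_KO_8459, to 34.1 in tumor POGZ_KO_8455 and to 21.8 or less in the other tumors. What part fat, fibroblasts, mammary tissue or B and plasma cells had in the Scd1 levels was not tested.

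**Figure D3:**
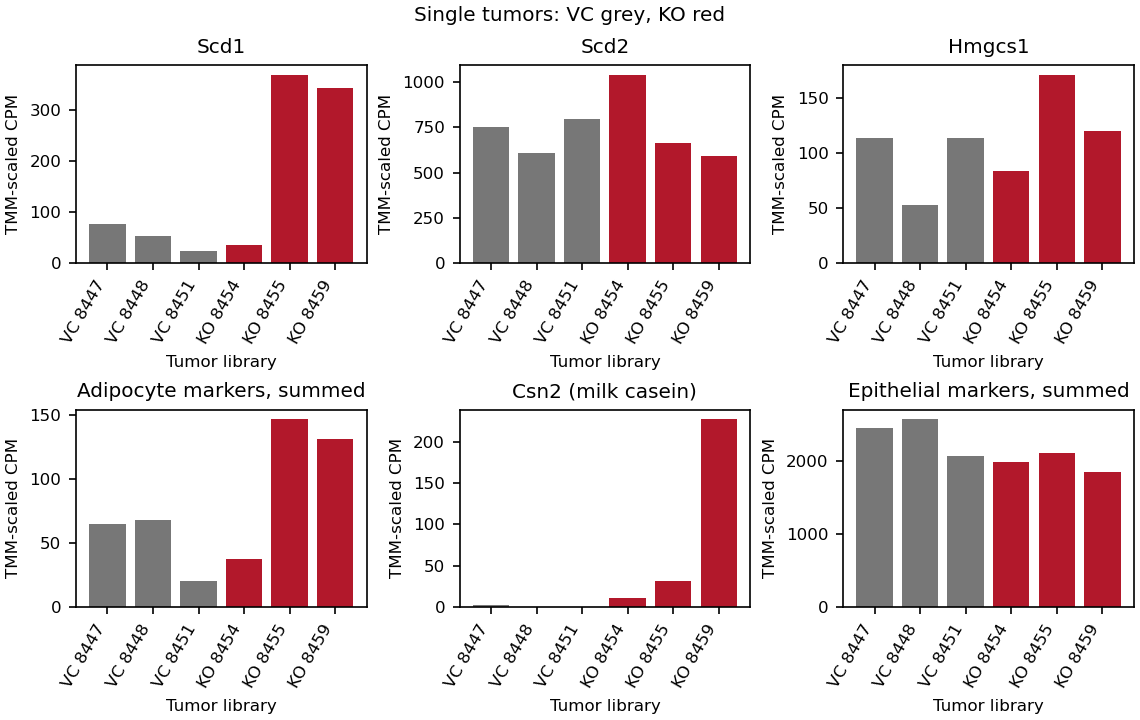
TMM-scaled CPM in each of the 6 tumors (bars from 0, 1 library each; control tumors grey, knockout-labelled red) for Scd1, Scd2, Hmgcs1, the sum of 12 adipocyte markers, the casein Csn2 and the sum of 10 epithelial markers. Scd1, the adipocyte sum and Csn2 are all highest in tumors POGZ_KO_8455 and POGZ_KO_8459, with Csn2 far higher in the latter. Scd2 is highest in POGZ_KO_8454.

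Among the remaining members, Lpin1 was at 16.1, 18.5 and 18.2 against 18.5, 27.5 and 27.9 (log2 fold change 0.49 ± 0.22, adjusted p = 0.861). Fasn was at 273, 189 and 280 against 213, 269 and 294, Acly at 207, 172 and 189 against 165, 189 and 203, and their log2 fold changes were 0.07 ± 0.21 and -0.02 ± 0.15. Scap, which fell in culture, was at 50.1, 56.4 and 43.4 against 33.4, 50.5 and 49.7 (-0.16 ± 0.21, adjusted p = 0.933). In each of the 6 further lists 0 genes were called in tumors.

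Whether the knockout label acted differently in tumors and cultures was tested as an interaction over all 12 libraries. No member passed it: 0 were called higher and 0 lower, where 1.13% and 0.912% of 18419 genes were, and DESeq2 also called 0. At an unadjusted p under 0.05, 2 members were higher (8.12% of all genes) and 0 lower (7.25%). The median difference of the 2 log2 fold changes was -0.01 over the members and 0.03 over all genes. The SE of a member's difference ran from 0.14 for Acly to 0.88 for Scd1. A missed threshold does not show that the effects were alike in the 2 systems. For Scd1 the difference was 2.66 ± 0.88 (adjusted p = 0.164), and for Tm7sf2, which fell in culture, 0.61 ± 0.26 (adjusted p = 0.279). The differences were -0.43 ± 0.39 for Hmgcs1, -0.29 ± 0.47 for Idi1 and 0.21 ± 0.23 for Nsdhl. Without knockout-labelled tumor POGZ_KO_8454 the difference passed the test for Scd1 (3.18, adjusted p = 0.00174) and Scd2 (-0.69, adjusted p = 0.0208). Without control tumor POGZ_VC_8448 it did so for Elovl6 (-0.95, adjusted p = 0.0232).

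Both kinds of tumor held far less RNA of these genes than the cultures did. Between control tumors and control cultures 28 of the 31 members were lower and 0 higher, where 29.5% and 35.7% of 17123 genes were, and in 30 members all tumors lay below all cultures, against 35.2% of genes. The median log2 fold change was -1.28 over the members and 0.07 over all genes. Between knockout-labelled tumors and cultures 27 were lower and 0 higher (26.0% and 35.3% of 17311 genes), in 28 all tumors lay below all cultures (35.1% of genes), and the medians were -1.54 and 0.13. These comparisons use separate animals and cultures, and each tumor group shares its samples with the tests above. Growth in the animal, host cells in the tumor and the separate handling of the 2 sets of libraries cannot be told apart. The epithelial marker sum given above was also lower in tumors.

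By role, the mevalonate and sterol genes had the lowest median log2 fold changes, -1.59 and -1.46 in control samples and -1.82 and -1.71 in knockout-labelled ones, with single exceptions in both roles. Acat2 went from 86.3, 87.4 and 88.3 in control cultures to 13.6, 9.97 and 12.5 in control tumors, a log2 fold change of -2.84 ± 0.13 (adjusted p = 2.11e-06), and the log2 fold change was -2.51 ± 0.32 in the knockout-labelled samples. The log2 fold changes in the control and the knockout-labelled pair of groups were -2.49 ± 0.24 and -2.08 ± 0.36 for Fdps, -2.28 ± 0.11 and -2.02 ± 0.19 for Nsdhl, and -2.02 ± 0.24 and -2.00 ± 0.25 for Mvk. Of the 11 sterol genes, 11 were lower in control and 10 in knockout-labelled samples. Tm7sf2 was the exception in the latter, with 8.87, 9.90 and 8.05 in cultures and 12.7, 9.68 and 7.88 in tumors (0.26 ± 0.21, adjusted p = 0.314). In the control samples its log2 fold change was -0.40 ± 0.15 (adjusted p = 0.0447), and the adjusted p was 0.077 to 0.146 without any 1 of the control cultures. With upper-quartile scaling it was 0.113, and by DESeq2 0.0719. Pmvk was the mevalonate gene that did not pass the test in control samples (-0.45 ± 0.20, adjusted p = 0.0787), though it did without control tumor POGZ_VC_8451 (adjusted p = 0.014).

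The control genes differed among themselves. Insig1 went from 212, 217 and 238 to 62.4, 29.6 and 49.5 in control samples (log2 fold change -2.22 ± 0.24) and from 336, 328 and 323 to 53.2, 75.7 and 63.9 in knockout-labelled ones (-2.27 ± 0.14). Insig2 was at 56.5, 44.5 and 39.8 and at 55.9, 40.0 and 37.1 in the tumors, on both sides of its culture levels (0.05 ± 0.14, adjusted p = 0.753, and 0.03 ± 0.16, adjusted p = 0.896). Srebf1 did not pass the test in either pair (-0.32 ± 0.13 and -0.35 ± 0.17, adjusted p = 0.0694 and 0.11). It did in control samples without tumor POGZ_VC_8451 (0.00997) and in knockout-labelled ones without tumor POGZ_KO_8454 (0.021), POGZ_KO_8455 (0.0409) or POGZ_KO_8459 (0.0489). Scap was lower in both, at -1.08 ± 0.11 and -0.92 ± 0.16. Srebf2 was lower in both, with log2 fold changes of -1.10 ± 0.17 and -0.84 ± 0.29 (adjusted p = 0.0426 in the latter, and 0.0733 to 0.0942 without tumor POGZ_KO_8455 or any 1 of the knockout-labelled cultures). With RLE scaling the adjusted p in knockout-labelled samples was 0.0574.

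Of the fatty acid genes, Scd2 went from 2113, 2050 and 2085 to 751, 610 and 796 in control samples (log2 fold change -1.50 ± 0.13) and had a log2 fold change of -1.85 ± 0.22 in knockout-labelled ones. Those of Fasn were -1.54 ± 0.16 and -1.33 ± 0.13, and those of Acly -0.85 ± 0.10 and -0.93 ± 0.10. Scd1 was lower in control samples (-1.03 ± 0.34, adjusted p = 0.0272). In knockout-labelled samples its fitted value was above 0, at 1.69 ± 0.74 (adjusted p = 0.0855). Without tumor POGZ_KO_8454 that value was 2.18 (adjusted p = 6.61e-06). In control samples Scd1 and Elovl6 (-0.98 ± 0.30, adjusted p = 0.0214) did not pass the test once any 1 culture was left out, with adjusted p = 0.0603 to 0.0796 and 0.0517 to 0.0617.

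**Figure D4:**
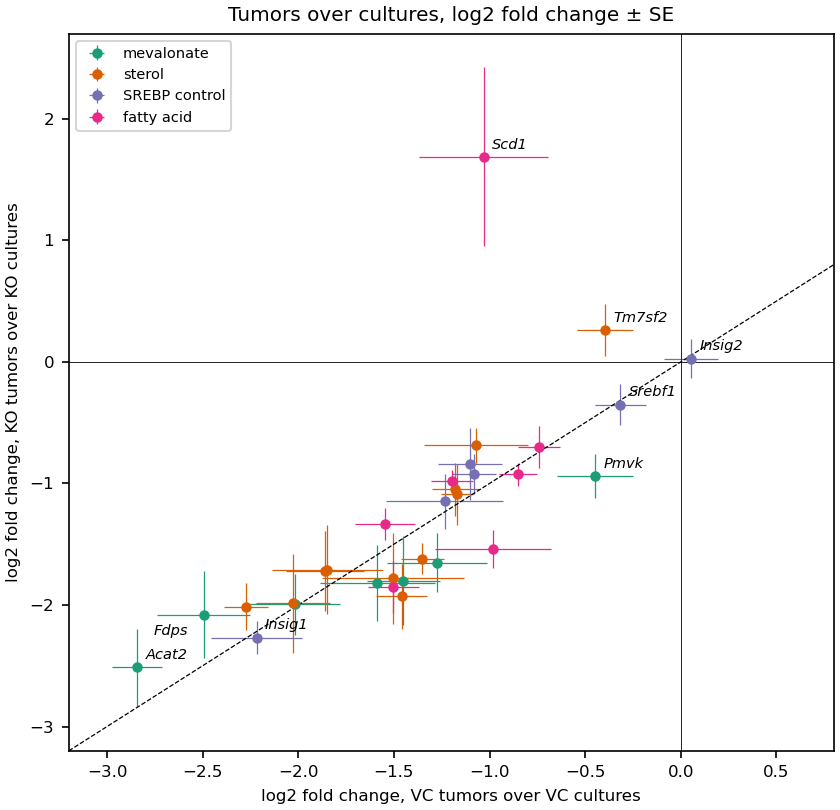
Log2 fold change of tumors over cultures for the 31 genes, control samples on the x axis and knockout-labelled samples on the y axis; points are fitted values coloured by role, bars 1 SE with 3 samples per group, and the dashed line marks equal values. Nearly all points lie in the lower left, Acat2 lowest on both axes, with Insig2 near 0 on both and Scd1 at -1.03 and 1.69.

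The same 6 lists were read in tumors against cultures, where 35.7% of all genes were higher and 29.5% lower in control samples, and 35.3% and 26.0% in knockout-labelled ones. Of 18 measured genes of other fatty acid synthesis steps, 14 were lower and 1 higher in control tumors than in control cultures, and 13 and 0 in the knockout-labelled samples. Among them Me1, which supplies NADPH, had a log2 fold change of -2.02 ± 0.17 in the control samples and Slc25a1, the citrate carrier, -1.06 ± 0.09 in the knockout-labelled ones. Of 10 genes of SREBP processing and sterol sensing, 5 were lower and 1 higher in either pair, with Tmem97, a sterol-responsive membrane protein, at -2.93 ± 0.20 and -2.31 ± 0.26. Of 18 genes of sterol transport and storage, 9 were higher and 2 lower in control samples, and 13 and 1 in knockout-labelled ones. Abca1, the cholesterol exporter, was at 0.0587 to 0.385 in cultures and at 221 to 462 in tumors, and Abcg1 at 0.113 or less and at 26.5 to 64.5. Macrophages are known to express both exporters, and their markers were higher in tumors, as given above. Markers of fibroblasts, endothelial cells and T and NK cells were higher in tumors too, so the cell types cannot be told apart here. What part host cells had in these levels was not tested. Of the remaining lists, the isoprenoid and the activation and glycerolipid genes were higher less often than all genes in both pairs. Genes of both lists were also lower more often. Of the oxidation genes 6 of 13 were higher and 4 lower in control samples and 8 of 15 and 2 in knockout-labelled ones. Of the isoprenoid branches 2 of 11 were higher and 4 lower, and 1 and 4, and of the activation and glycerolipid genes 1 of 20 and 8, and 2 and 9.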

How the data were processed

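Ribosomal-RNA-depleted libraries of 6 cultures and 6 tumors were analysed, with groups taken from the titles and genotype labels. The authors deposited raw counts per gene, one table for the cultures and one for the tumors. The submitters' processing notes name mm10, featureCounts 1.4.4, STAR 2.3.0e and Trimmomatic 0.32. Their settings, the annotation release and whether counting used strand are not given in the sources used here, so counts of overlapping genes and close paralogs are uncertain. Genes were placed on GRCm38 through GENCODE release M21, which held 37693 of the 39017 identifiers.

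Counts were fitted in R 4.3.3 with edgeR 4.0.16 (filterByExpr, TMM, quasi-likelihood test, Benjamini-Hochberg adjustment over all genes tested, with calls at an adjusted p under 0.05). Separate fits were made for cultures, for tumors, for the interaction over all 12 libraries, and for tumors against cultures within each label. SE is the absolute log2 fold change divided by the root of F. Levels are CPM on the library total times its TMM factor over the 12 libraries. Chromosome medians used genes at a mean log2 CPM from 3 upward. Tables were read and drawn with Python 3.11.15 and pandas 2.3.3. The fit was tested on simulated data.

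The members and lists were chosen with earlier results of these data known. Every member is described. Other genes named were Pogz, up to 3 called genes of smallest p in each of 6 pathway lists per comparison, and marker genes at 0 or most abundant. The marker genes Adipoq, Csn2, Awat1, Krt79 and Mogat2 and the receptors were chosen after their values were seen. Of 246 symbols listed, 245 matched a gene. Replicates differed by more than sampling noise, so all were kept. Alternatives were upper-quartile and RLE scaling, DESeq2 1.42.0, no filter, 1 fit of all libraries, glmTreat at a fold of 1.2, a replicate block, chromosome medians taken out, thinning to the smallest total, structural RNA genes left out, and leaving out each library.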

Additional observations from a re-analysis of the deposited data

Results flagged for a closer look

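Gramd1b, which moves cholesterol from the plasma membrane to the endoplasmic reticulum, drew attention because the difference that went with the knockout label was not the same in cultures and tumors, by the test of that difference. In cultures it was at 12.7, 13.0 and 12.2 TMM-scaled CPM in control and 0.587, 0.546 and 0.512 in knockout-labelled cells, a log2 fold change of -4.51 ± 0.15 (SE, n = 3 each, edgeR adjusted p = 6.34e-10). In tumors it was at 8.45, 10.8 and 10.9 in control and 9.93, 17.3 and 23.7 in knockout-labelled tumors, with the groups overlapping (0.77 ± 0.33, adjusted p = 0.861). The interaction of label and system was 5.27 ± 0.41 on the log2 scale (edgeR adjusted p = 0.000106). The tumors also hold host cells, and their part in the tumor level of Gramd1b was not tested.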

How the results depend on the processing

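In cultures the number of members called higher was 22 to 25 and that called lower stayed at 3 under the other scalings, no filter, DESeq2, chromosome medians taken out and each library left out, but with all 12 libraries in 1 fit 2 were higher and 0 lower, and against a fold of 1.2 1 was lower. In tumors 0 members were called in either direction under every alternative run. With each library left out in turn, the interaction called 0 to 1 members higher and 0 to 1 lower, and knockout-labelled tumors against cultures 0 to 1 higher. Members lower in tumors ranged over all alternatives from 25 to 30 in control and from 26 to 28 in knockout-labelled samples. Over all genes, calls higher and lower in cultures were 3610 and 3913, or 663 and 838 at the fewest; in tumors 0 and 0, or 26 and 48 at the most (26 and 40 by DESeq2); and for the interaction 209 and 168, over ranges of 85 to 800 and 62 to 788. Over the alternatives no named value that was called changed sign. The culture numbers did not pair the libraries (correlations of -0.17, 0.02 and 0.06 between same-numbered cultures over 10710 genes); with a replicate block 22 members were higher and 3 lower. No paired analysis was possible because tumors share no numbers. The precision of the tumor tests is limited by the spread between tumors, a median coefficient of variation of 23.6% in control and 31.5% in knockout-labelled tumors, beside totals down to 4712001 counts.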
